A study of Rattus norvegicus with 43 samples.

Results

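The 10 chemokine genes described here are Cxcl1, Cxcl2, Ccl2, Ccl20, Cxcl9, Cxcl10, Cxcl11, Cxcl12, Cxcl16 and Cx3cl1, followed in rat liver and in rat primary hepatocytes (RPH) after 0, 4, 24 and 48 h. Each gene was read from the probe sets that list it as their single symbol, and where a gene had several, from the one with the highest mean log2 signal. They are 10 of the 14218 genes with such a probe set, and 8 of the 10 passed a filter on low signals that left 10644 genes for testing. The donors were 3 untreated male rats of the Sprague Dawley strain, and every rat is represented once in each of 5 groups. Liver was a lobe tied off before the organ was perfused, the 0 h sample was the pellet of isolated cells, and the 4, 24 and 48 h samples were cells in culture. The medium was William's E with insulin, transferrin and dexamethasone, and serum was present only up to 4 h, so that time in culture and the change of medium cannot be told apart after that point. RNA of whole tissue or whole cultures was hybridized to Affymetrix RG230-2 arrays, in 43 arrays for 15 samples. The age of the animals is not stated in these sources.

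Chemokines are small secreted proteins that guide white blood cells along a concentration gradient through receptors on those cells. Inflammatory chemokines are made on demand, many of them when the transcription factor NF-kappaB or the interferon pathway is activated, whereas homeostatic chemokines such as Cxcl12 are made steadily in healthy tissue. In liver, hepatocytes, Kupffer cells (the resident macrophages), sinusoidal endothelial cells and stellate cells can all be sources, and chemokines are known for recruiting neutrophils, monocytes and lymphocytes after injury.

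The values are MAS5 signals, a linear measure of brightness in arbitrary units in which every array was scaled to a trimmed mean of 500, so they compare 1 gene between samples and not 1 gene with another. Changes are log2 fold changes ± their standard error (SE) from limma, fitted over all 15 samples with n = 3 rats per group, and a gene was called at an adjusted p under 0.05 over the 10644 genes. An exact test of 3 samples against 3 cannot go below p = 0.1. The smaller p values thus rest on the limma model, with a spread shared over all groups and in part over genes. The median signal of an array lay between 79.7 and 145. For beta-actin, the signal at the 3' end over that at the 5' end, a sign of RNA quality, was 3.21 to 6.96 in liver and 1.95 to 2.46 at 48 h. Albumin (Alb), the marker of hepatocytes, had a signal of 24575 to 41315 across the samples, while 8 of 11 hepatocyte markers fell at 48 h vs. liver (22.6% of all genes). The liver labels of rats 1 and 2 were not borne out by the other samples: the residuals of the rat 1 liver had a mean r of 0.03 with the cultures and pellet of rat 1 and 0.19 with those of rat 2, and the rat 2 liver had -0.06 with rat 2 and 0.08 with rat 1. The main fit makes no use of the rat, and values that do are named.

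The chemokines followed 4 courses. Cxcl1, Cxcl2, Cxcl9 and Cxcl11 were highest at 4 h, Cxcl16 and Ccl2 were highest at 48 h, Cxcl12 fell in culture, and Cxcl10 stayed near its liver level to 4 h and then fell. At 0 h vs. liver 2 of the 8 tested chemokines rose and 0 fell, where 0.141% of all genes tested rose and 0.432% fell. At 4 h vs. liver 4 rose and 1 fell (16.4% and 29.8% of all genes). At 24 h 4 rose and 3 fell (23.7% and 23.9%), and at 48 h 5 rose and 3 fell (25.4% and 22.6%). Between successive times, 5 rose and 1 fell from 0 to 4 h (16.3% and 22.7%), 1 rose and 5 fell from 4 to 24 h (26.3% and 13.5%), and 0 rose and 1 fell from 24 to 48 h (2.51% and 1.78%). The median log2 fold change of the 8 genes was 1.77 at 4 h vs. liver, against -0.25 over all genes, and -1.77 from 4 to 24 h, against 0.14. The comparisons with liver share the liver samples, and 8 genes chosen with results known give no test of chemokines as a class.

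**Figure D1:**
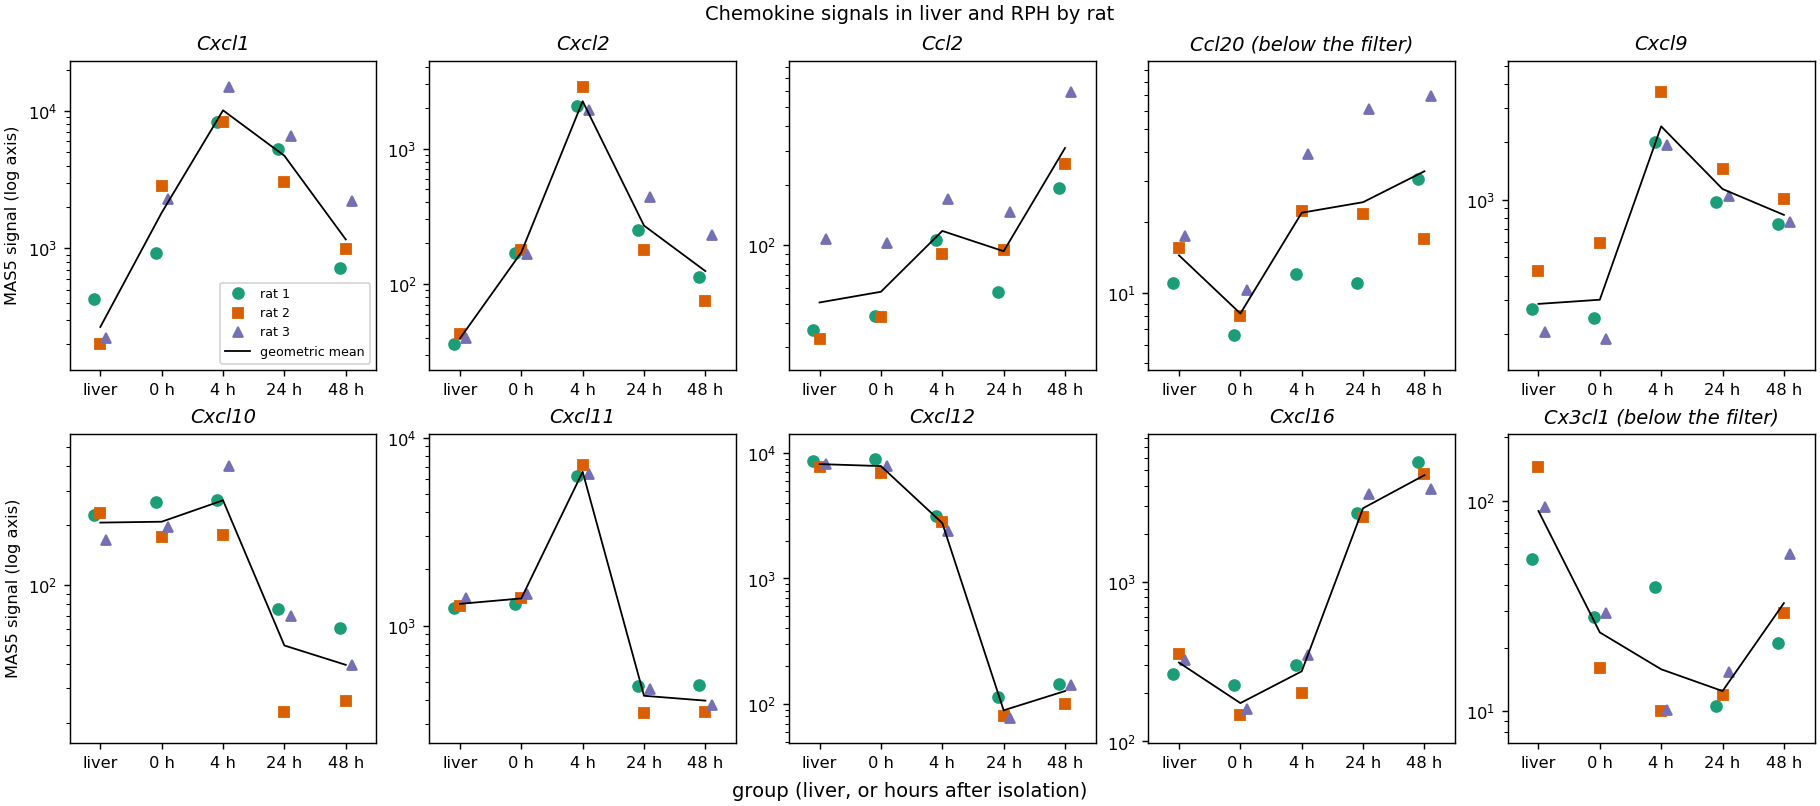
MAS5 signal on a log axis of each of the 10 chemokines in liver and in RPH after 0, 4, 24 and 48 h, with 1 point per rat and a line through the geometric means (n = 3 rats per group). Cxcl1, Cxcl2, Cxcl9 and Cxcl11 are highest at 4 h, Cxcl16 and Ccl2 at 48 h, and Cxcl12 is near its liver level at 0 h and far below it from 24 h.

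Cxcl1 and Cxcl2 are the neutrophil attractants of the group and act through the receptor Cxcr2. They lie next to each other on chromosome 14, 10.3 kb apart, in the RefSeq annotation of the build GRCr8 (Cxcl2 at chr14:17465210-17467255, Cxcl1 at chr14:17477542-17479321). Their promoters, here 250 bases before to 50 bases after the annotated start and taken from RefSeq on GRCr8, are shown because both hold matches to the binding motif of NF-kappaB, written in capitals. On both strands, the letters searched were GGG and TTTCC with any 2 bases between, and the looser GGGA and CC with any 4 bases between, which overlap, and neighbouring matches run together into 1 block.
Cxcl1 (chr14:17479272-17479571, minus strand): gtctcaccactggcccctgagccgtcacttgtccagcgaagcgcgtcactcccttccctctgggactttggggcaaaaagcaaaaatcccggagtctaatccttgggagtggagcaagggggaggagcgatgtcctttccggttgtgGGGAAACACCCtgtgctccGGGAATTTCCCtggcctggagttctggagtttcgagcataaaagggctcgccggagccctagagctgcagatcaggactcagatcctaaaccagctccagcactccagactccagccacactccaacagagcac
Cxcl2 (chr14:17467206-17467505, minus strand): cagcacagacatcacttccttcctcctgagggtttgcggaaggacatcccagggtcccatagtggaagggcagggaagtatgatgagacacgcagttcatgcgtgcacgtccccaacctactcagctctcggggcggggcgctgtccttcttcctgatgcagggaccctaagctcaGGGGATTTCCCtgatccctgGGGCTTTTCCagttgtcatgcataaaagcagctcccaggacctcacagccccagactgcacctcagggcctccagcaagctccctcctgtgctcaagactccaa
Cxcl1 has the first motif 84 bases before the start and again, on the other strand, 102 bases before it, and Cxcl2 has it 74 and 54 bases before the start. Of 33469 promoters of this length, 1.53% hold the first motif and 19.3% the second. Among the 9 chemokines with a promoter in the table, the first motif was in 3 (Cxcl1, Cxcl2 and Ccl20). A match describes these letters only and does not show binding.

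Cxcl1 rose from liver to 4 h, and its signal was lower again later. Its signal in rats 1, 2 and 3, the order used for every gene below, was 427, 201 and 221 in liver, 917, 2837 and 2300 at 0 h, 8339, 8325 and 14905 at 4 h, 5254, 3035 and 6591 at 24 h and 719, 987 and 2197 at 48 h. Every rat had its highest signal at 4 h, and the liver range overlapped with none of the other groups. In order of level the groups ran 4 h, 24 h, 0 h, 48 h and liver, and of these neighbours 0 h and 48 h alone overlapped. Relative to liver, Cxcl1 had a log2 fold change of 2.77 ± 0.50 (adjusted p = 0.0322) at 0 h, 5.24 ± 0.50 (adjusted p = 4.37e-06) at 4 h, 4.14 ± 0.50 (adjusted p = 2.23e-05) at 24 h and 2.12 ± 0.50 (adjusted p = 0.00343) at 48 h. The geometric mean at 4 h was 37.9 times that of liver and 5.57 times that of 0 h. The decline from 4 to 24 h, -1.10 ± 0.50 (adjusted p = 0.0956), was not called although the signals did not overlap, and that from 24 to 48 h was -2.03 ± 0.50 (adjusted p = 0.0352). This last call ended when any of 4 single samples (rat 1 or 3 at 24 h, rat 1 or 2 at 48 h) or any whole rat was left out, with adjusted p up to 0.254. Without rat 3 in all groups the 48 h vs. liver value was 1.52 (adjusted p = 0.0665). In bulk RNA, fewer cells of a type and less RNA per cell cannot be told apart, for this gene and for those below.

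Cxcl2 had the largest rise of these genes between successive times, from 0 to 4 h. Its signal was 36.0, 42.9 and 40.0 in liver, 169, 177 and 168 at 0 h, 2043, 2844 and 1919 at 4 h, 249, 178 and 442 at 24 h and 112, 74.5 and 231 at 48 h. All 3 rats at 4 h lay above every other sample, and all 3 livers lay below every other sample, while 0 h and 48 h overlapped. From 0 to 4 h the log2 fold change was 3.71 ± 0.37 (adjusted p = 7.04e-06) and that from 4 to 24 h was -3.05 ± 0.37 (adjusted p = 3.51e-05). Relative to liver it was 2.11 ± 0.37 (adjusted p = 0.0257) at 0 h, 5.82 ± 0.37 (adjusted p = 2.63e-07) at 4 h, 2.77 ± 0.37 (adjusted p = 5.21e-05) at 24 h and 1.65 ± 0.37 (adjusted p = 0.00239) at 48 h. The liver signal is low and varied between technical arrays, so these folds depend on how low signals are treated: with 32 added to each signal they were 1.37, 4.83, 1.93 and 1.00. With the beta-actin ratio as a covariate, a fit added after the data were seen, the 48 h vs. liver value was not called (adjusted p = 0.0619, the highest over the 13 alternative settings).

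The rises of Cxcl1 and Cxcl2 in the 0 h pellet were seen in 3 of 3 rats, but few genes passed at this time and both calls were near the threshold. Both ended when rat 2 or rat 3 was left out of liver or of 0 h (adjusted p 0.122 to 0.181, log2 fold changes 2.09 to 2.63), and without the filter on low signals (0.0623 for Cxcl1 and 0.0540 for Cxcl2). They also ended without rat 2 or rat 3 in all groups (adjusted p 0.405 to 0.864), and that of Cxcl2 without rat 1 (0.124). Over the 13 alternative settings that keep all samples the adjusted p was 0.000866 to 0.138 for Cxcl1 and 0.00586 to 0.0540 for Cxcl2. Called falls at 0 h vs. liver were found for 2 of 12 endothelial markers (Vwf -3.50, Plvap -1.44) and for Tagln (-3.14), Gzma (-1.66) and Sctr (-1.70) of the stellate, lymphocyte and bile duct lists. The geometric means of Tagln (92.6 and 10.5) and Sctr (59.0 and 18.2) in liver and at 0 h lay below the array medians. Folds at such signals depend on the treatment of background. Vwf (187 and 16.5) and Gzma (216 and 68.2) exceeded the medians in liver alone, so their passing of the filter may rest on liver. Of 12 Kupffer cell markers 0 were called, with a lower mean in 12 of 12, and of 11 hepatocyte markers 0 were called, at a time when 0.432% of all genes fell. S100a8 and S100a9, the neutrophil markers that passed the filter, were not called at 0 h vs. liver, and the summed signal of the 5 neutrophil markers on the array was 224 to 621 in liver and 77.9 to 114 at 0 h. The part of cell composition in the rises was not tested.

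Ccl2 and Ccl20 attract monocytes, through Ccr2, and lymphocytes and dendritic cells, through Ccr6. Ccl2 (chr10:67503077-67504875 on GRCr8) rose late. Its signal was 36.9, 33.3 and 107 in liver, 43.6, 42.9 and 102 at 0 h, 105, 89.6 and 171 at 4 h, 57.4, 93.9 and 147 at 24 h and 195, 257 and 593 at 48 h. Rat 3 was the highest in 5 of 5 groups, and every 48 h sample lay above every sample of the other groups, which all overlapped with their neighbours. Against liver, Ccl2 had a log2 fold change of 2.61 ± 0.54 (adjusted p = 0.00142) at 48 h, 1.21 ± 0.54 (adjusted p = 0.0809) at 4 h and 0.86 ± 0.54 (adjusted p = 0.200) at 24 h. The livers, pellets and cultures of a rat come from the same animal, and with the rat as a block 4 further differences of Ccl2 were called: 4 h vs. liver (adjusted p = 0.000605), 24 h vs. liver (0.00460), 4 h vs. 0 h (0.00211) and 48 h vs. 24 h (0.000601). Over the 12 alternative settings that test Ccl2 these adjusted p ranged from 0.000399 to 0.740. With the beta-actin ratio as a covariate, the 48 h vs. liver value was 2.10 and not called (adjusted p = 0.0950, the highest over these settings).

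Ccl20 (chr9:91837139-91839736) was at the bottom of the scale and was not tested, since 0 of 43 arrays had it above their median signal. It was 11.0, 15.6 and 17.6 in liver, 6.58, 7.98 and 10.3 at 0 h, 12.1, 22.4 and 39.4 at 4 h, 11.0, 21.6 and 61.3 at 24 h and 30.6, 17.1 and 69.7 at 48 h. Rat 3 was the highest in 5 of 5 groups, as for Ccl2. The 0 h signals lay below those of every other group, and the remaining neighbours in the order 48 h, 24 h, 4 h and liver overlapped.

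Cxcl9, Cxcl10 and Cxcl11 are the ligands of Cxcr3, the receptor of activated T cells and natural killer cells, and are known as interferon-induced genes. The 3 genes are neighbours on chromosome 14 of GRCr8 (Cxcl11 at chr14:15973728-15976503, Cxcl10 at chr14:15989066-15991263 and Cxcl9 at chr14:16007166-16012077), within 38.4 kb. Their promoters are shown because neighbouring genes of 1 receptor took different courses. Capitals mark the looser NF-kappaB motif, the interferon-response motif (GAAA and GAAA with any 2 bases between) and the AP-1 motif TGANTCA, searched on both strands.
Cxcl9 (chr14:16006916-16007215, plus strand): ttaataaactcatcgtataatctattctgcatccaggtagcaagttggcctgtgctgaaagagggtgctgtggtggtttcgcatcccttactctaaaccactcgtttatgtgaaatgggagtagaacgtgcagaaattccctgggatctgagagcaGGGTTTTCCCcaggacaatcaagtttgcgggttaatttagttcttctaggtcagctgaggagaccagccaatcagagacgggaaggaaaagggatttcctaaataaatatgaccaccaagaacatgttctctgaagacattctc
Cxcl10 (chr14:15988816-15989115, plus strand): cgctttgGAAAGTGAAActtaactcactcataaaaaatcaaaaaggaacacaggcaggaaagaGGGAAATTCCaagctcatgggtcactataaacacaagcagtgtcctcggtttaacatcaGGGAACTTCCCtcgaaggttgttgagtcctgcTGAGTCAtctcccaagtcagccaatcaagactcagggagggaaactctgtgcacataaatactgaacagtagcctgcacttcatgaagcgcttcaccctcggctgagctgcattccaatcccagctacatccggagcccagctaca
Cxcl11 (chr14:15973478-15973777, plus strand): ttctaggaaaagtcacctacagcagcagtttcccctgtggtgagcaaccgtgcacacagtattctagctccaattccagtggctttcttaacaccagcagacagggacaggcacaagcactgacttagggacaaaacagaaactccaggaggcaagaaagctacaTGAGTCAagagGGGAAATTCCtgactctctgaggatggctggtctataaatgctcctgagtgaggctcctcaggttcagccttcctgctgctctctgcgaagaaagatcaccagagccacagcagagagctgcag
The NF-kappaB motif stood 94 bases before the start, on the other strand, in Cxcl9, 187 and 128 bases before it in Cxcl10 and 74 bases before it in Cxcl11. The interferon-response motif, held by 3.92% of all promoters, was found in Cxcl10 alone of the 9 chemokines, 243 bases before the start. The AP-1 motif, held by 7.33%, stood 96 bases before the start in Cxcl10 and 85 bases before it in Cxcl11. In the windows of Cxcl12 and Cxcl16 none of these letters were found, which says nothing of the factors elsewhere. The Cx3cl1 window, also without a match, lies inside the span annotated for the gene and not at its outer end.

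Cxcl9 rose at 4 h and stayed above liver. Its signal was 269, 423 and 204 in liver, 242, 597 and 187 at 0 h, 2000, 3652 and 1929 at 4 h, 971, 1448 and 1046 at 24 h and 748, 1005 and 769 at 48 h. Rat 2 was the highest in 5 of 5 groups, liver and 0 h overlapped, as did 24 h and 48 h, and every cultured sample was above every liver and 0 h sample. Compared with liver, the log2 difference was 3.08 ± 0.40 (adjusted p = 4.99e-05) at 4 h, 1.99 ± 0.40 (adjusted p = 0.00117) at 24 h and 1.54 ± 0.40 (adjusted p = 0.00624) at 48 h, and 0.07 at 0 h (95% interval -0.79 to 0.93). The second Cxcl9 probe set gave 3.07 ± 0.43 at 4 h vs. liver. The decline from 4 to 24 h, -1.09 ± 0.40 (adjusted p = 0.0439), was near the threshold: the call ended without rat 1 or 2 at 4 h, without rat 1 or 3 at 24 h, and without rat 1 or rat 3 throughout (adjusted p 0.0528 to 0.190). It also ended in 5 of the 13 settings that keep all samples (centring, no filter, every probe set, median of technical arrays, beta-actin covariate), over which adjusted p was 0.00140 to 0.0855. The 48 h vs. liver call ended without rat 1 (1.58, adjusted p = 0.0627) or rat 3 (1.36, adjusted p = 0.0601), and with the beta-actin ratio as a covariate (1.61, adjusted p = 0.0900, the highest over the 13 settings).

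Cxcl11 rose and fell back below its liver level. Its signal was 1237, 1275 and 1410 in liver, 1309, 1401 and 1480 at 0 h, 6220, 7171 and 6396 at 4 h, 476, 345 and 462 at 24 h and 485, 346 and 377 at 48 h. The rats differed little, with a mean between-rat SD of 0.16 on the log2 scale, the 4 h samples lay above and the 24 and 48 h samples below all others, and the pairs liver and 0 h, and 24 h and 48 h, overlapped. Cxcl11 had a log2 fold change of 2.24 ± 0.16 (adjusted p = 7.72e-07) from 0 to 4 h and of -3.96 ± 0.16 (adjusted p = 2.68e-09) from 4 to 24 h, a 15.6-fold difference of the geometric means. Relative to liver it was 2.33 ± 0.16 (adjusted p = 5.65e-07) at 4 h, -1.63 ± 0.16 (adjusted p = 5.15e-06) at 24 h and -1.71 ± 0.16 (adjusted p = 2.64e-06) at 48 h.

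Cxcl10 showed no rise that passed the test. Its signal was 225, 231 and 169.6 in liver, 263, 176 and 197 at 0 h, 268, 179 and 400.3 at 4 h, 75.9, 22.9 and 69.6 at 24 h and 60.3, 26.0 and 39.2 at 48 h. Liver, 0 h and 4 h overlapped, and every sample of 24 and 48 h, which overlapped with each other, lay below them. Between 0 and 4 h the log2 fold change was 0.36 ± 0.44 (adjusted p = 0.547), with a 95% interval of -0.58 to 1.30, which does not contain the values of Cxcl9 (3.01) and Cxcl11 (2.24). The difference between the genes was not tested. The fall from 4 to 24 h was -2.44 ± 0.44 (adjusted p = 0.000696), and vs. liver the value was -2.06 ± 0.44 (adjusted p = 0.00175) at 24 h and -2.39 ± 0.44 (adjusted p = 0.000592) at 48 h. With the beta-actin ratio as a covariate the value at 24 h vs. liver was -1.92 and was not called (adjusted p = 0.0504, the highest over the 13 settings).

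Cxcl12 (chr4:152060781-152073628), the homeostatic ligand of Cxcr4 and of the scavenging receptor Ackr3, fell the most of the members. Its signal was 8629, 7687 and 8119 in liver, 8874, 6939 and 7844 at 0 h, 3119, 2825 and 2384 at 4 h, 114, 80.5 and 77.5 at 24 h and 144, 99.8 and 142 at 48 h. Liver and 0 h overlapped, the 4 h samples lay between, and the 24 and 48 h samples, which overlapped, lay lowest in 3 of 3 rats. The log2 fold change vs. liver was -0.05 at 0 h (95% interval -0.47 to 0.36), -1.56 ± 0.19 (adjusted p = 3.45e-05) at 4 h, -6.51 ± 0.19 (adjusted p = 1.48e-10) at 24 h and -6.00 ± 0.19 (adjusted p = 2.87e-10) at 48 h. The geometric mean in liver was 91.2 times that at 24 h. After centring of the arrays, the small value at 0 h changed sign to 0.33 and was not called.

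The 3 Cxcl12 probe sets fell together by 24 h but disagreed at 4 h. RefSeq lists 3 transcripts for the gene, and which of them each probe set reads was not examined. The signals of the second probe set were 3787, 4788 and 5282 in liver, 4164, 3671 and 4376 at 0 h and 266, 171 and 236 at 4 h. Its log2 fold change at 4 h vs. liver was -4.38 ± 0.30, against -1.56 ± 0.20 for the brightest and -1.56 ± 0.55 for the dimmest, in a fit of all 14556 kept probe sets. At 24 h vs. liver the 3 values were -6.51, -5.93 and -5.72.

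**Figure D2:**
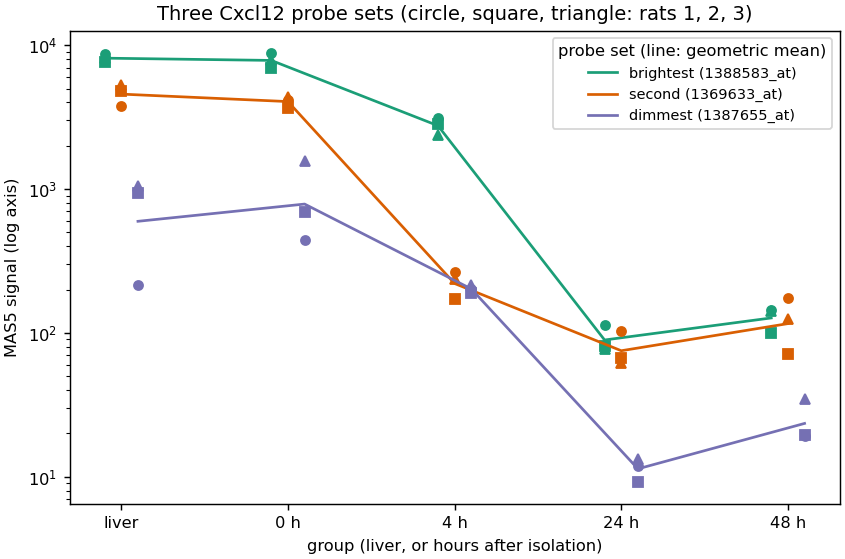
MAS5 signal on a log axis of the 3 Cxcl12 probe sets in liver and in RPH after 0, 4, 24 and 48 h, with 1 point per rat and lines through the geometric means (n = 3 rats per group). At 4 h the second brightest probe set lies at 171 to 266 and the brightest at 2384 to 3119, and by 24 h all 3 are at their lowest.

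The summed signal of Kupffer cell and of endothelial markers was lower in every later group, while that of stellate and fibroblast markers was lowest at 4 h. Single markers did not all follow the sums. From 4 to 24 h the geometric mean of Cd163 went from 219 to 381, while that of Clec4f went from 1347 to 998. At 4 h vs. liver 11 of 12 endothelial, 12 of 12 Kupffer cell and 10 of 13 stellate and fibroblast markers fell. Of 11 hepatocyte markers 0 fell, at a time when 29.8% of all genes did. The summed signal of 12 endothelial markers was 13481 to 16156 in liver, 7822 to 12015 at 0 h, 3536 to 5491 at 4 h, 1907 to 2998 at 24 h and 1021 to 2007 at 48 h. That of 12 Kupffer cell markers was 23853 to 31749, 14362 to 17068, 7516 to 10881, 5454 to 7538 and 2199 to 2865. The sum of 15 stellate and fibroblast markers was 8110 to 15450 in liver, 3609 to 7842 at 0 h, 997 to 2817 at 4 h, 3051 to 3170 at 24 h and 5736 to 7228 at 48 h. Its members differed after 4 h. At 4, 24 and 48 h the geometric mean of Tagln was 4.44, 854 and 3633, and that of Acta2 was 273, 607 and 830. Col1a2 also rose (51.7, 132 and 450), whereas Lrat (90.6, 46.7 and 23.5) and Pdgfra (50.6, 20.7 and 20.3) were lower. At 48 h vs. liver 2 of the 13 tested stellate and fibroblast markers rose and 7 fell (25.4% and 22.6% of all genes). The rises were those of Tagln (5.29 ± 0.41 (adjusted p = 4.81e-07)) and Acta2 (1.81), genes of contractile cells. At 0 h vs. liver all 12 endothelial and all 12 Kupffer cell markers had a lower mean, to 67.9% and 59.2% of the liver sum, while Cxcl12 had 7846 at 0 h and 8136 in liver. Cyp2e1, a hepatocyte enzyme, had a log2 fold change of -7.76 ± 0.32 (adjusted p = 1.84e-09) at 48 h vs. liver. At that time 8 of 11 hepatocyte markers fell, where 22.6% of all genes did. The sum of the 11 went from 315700 to 335019 in liver to 205240 to 262133 at 24 h and 168905 to 192900 at 48 h. The part of these cell types in the fall of Cxcl12 was not tested. Markers of lymphocytes were dim in liver: Cd3e had 104, 117 and 71.3, and Gzma was the only 1 of 13 that was bright enough to test.

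**Figure D3:**
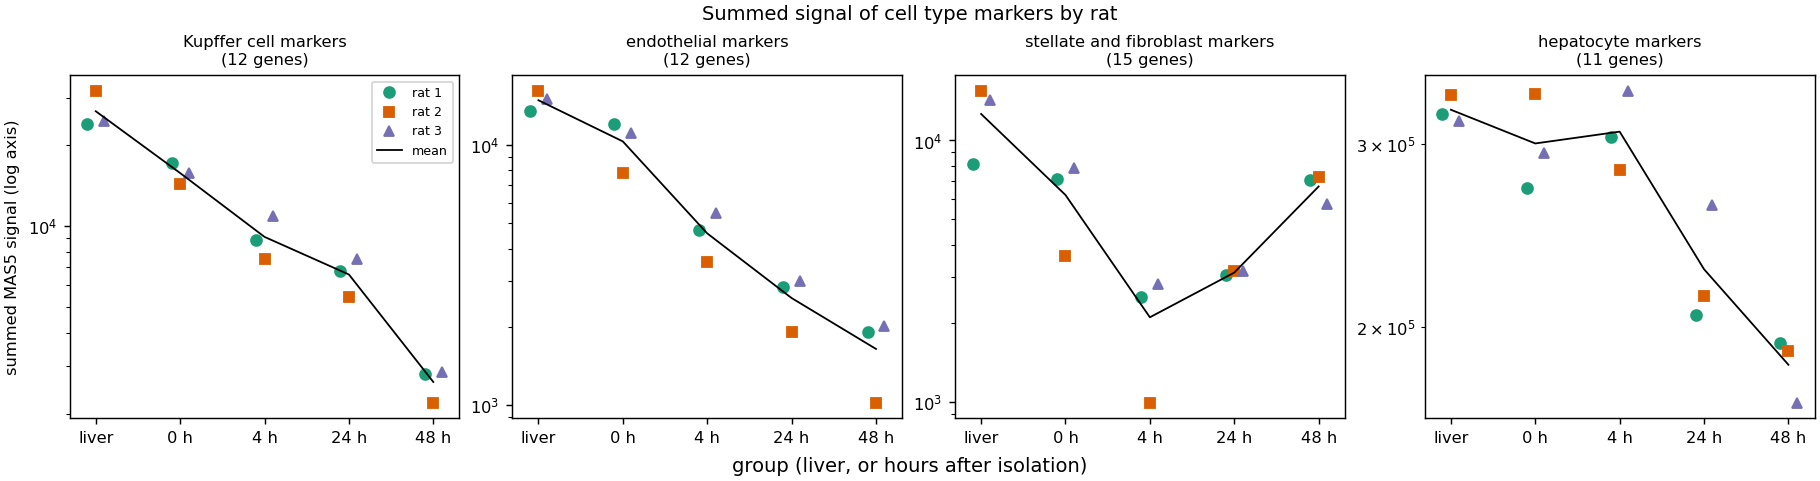
Summed MAS5 signal on a log axis of Kupffer cell, endothelial, stellate and fibroblast, and hepatocyte markers in liver and in RPH after 0, 4, 24 and 48 h, with 1 point per rat and a line through the means. The Kupffer cell and endothelial sums fall from group to group, to 2199 to 2865 and 1021 to 2007 at 48 h, the stellate and fibroblast sum is lowest at 4 h with 997 to 2817, and the hepatocyte sum is 283309 to 337669 at 4 h and 168905 to 192900 at 48 h.

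Cxcl16 and Cx3cl1 are made as membrane-bound chemokines that can be shed by the proteases Adam10 and Adam17. Cxcl16 (chr10:55665355-55669950), the ligand of Cxcr6, rose after 4 h. Its signal was 264, 354 and 325 in liver, 225, 146 and 159.5 at 0 h, 299, 199.9 and 348 at 4 h, 2699, 2540 and 3525 at 24 h and 5599, 4727 and 3814 at 48 h. Every 48 h sample was above every 24 h sample, and every 24 h sample was above all of liver, 0 h and 4 h, where liver and 4 h, and 4 h and 0 h, overlapped. The log2 fold change from 4 to 24 h was 3.39 ± 0.24 (adjusted p = 4.98e-07), and vs. liver it was 3.21 ± 0.24 (adjusted p = 4.59e-07) at 24 h and 3.90 ± 0.24 (adjusted p = 6.14e-08) at 48 h, a geometric mean 14.9 times that of liver. From 24 to 48 h it was 0.69 ± 0.24 (adjusted p = 0.150). At 0 h vs. liver it was -0.84 ± 0.24 (adjusted p = 0.158), although the signals did not overlap, but it was called in 2 of the 13 settings (with the median of technical arrays -1.10, adjusted p = 0.0125, range over all 0.0125 to 0.253). At 4 h vs. liver it was -0.18 ± 0.24 (adjusted p = 0.559), a value that turned to 0.04 after quantile normalization and to 0.28 with arrays centred on the median. The difference from 0 to 4 h, 0.66 ± 0.24 (adjusted p = 0.0432), was called by a narrow margin with overlapping signals, and the call ended without any 1 of rats 2 and 3 at 0 h and rats 1 and 3 at 4 h, or without any whole rat (adjusted p 0.0745 to 0.316). It also ended in 4 of the 13 settings (no filter, every probe set, compared groups alone, beta-actin covariate), with adjusted p of 0.00835 to 0.126 over all of them.

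Cx3cl1 (chr19:10233326-10244856), which attracts cells that carry Cx3cr1 and is known from endothelium, exceeded the array median in 3 of 43 arrays and was not tested. Its signal was 53.1, 145 and 92.9 in liver, 28.1, 16.2 and 29.4 at 0 h, 39.0, 10.1 and 10.1 at 4 h, 10.6, 12.0 and 15.4 at 24 h and 21.2, 29.5 and 55.8 at 48 h. Every liver sample lay above every sample of 0, 4 and 24 h, and the 48 h sample of rat 3 overlapped with liver. In a fit without the filter the log2 fold change vs. liver was -1.91 at 0 h (adjusted p = 0.178), -2.50 at 4 h (adjusted p = 0.00333), -2.84 at 24 h (adjusted p = 0.00130) and -1.45 at 48 h (adjusted p = 0.0488). At signals this low a fold depends on the treatment of background.

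**Figure D4:**
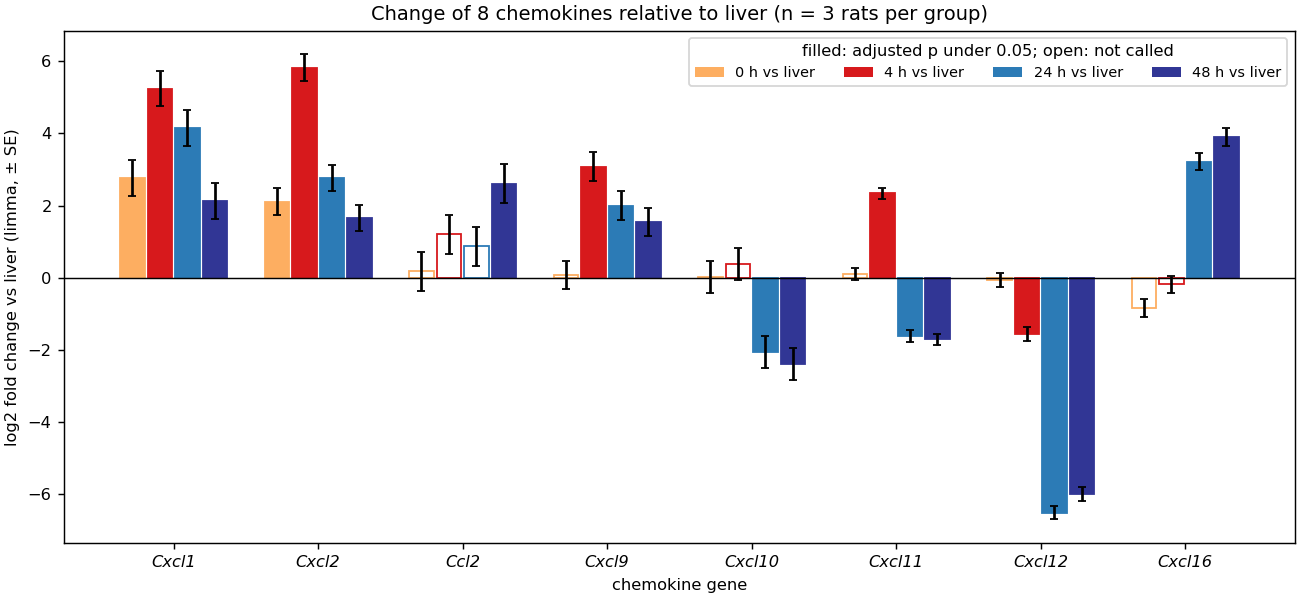
Log2 fold change vs. liver of the 8 tested chemokines at 0, 4, 24 and 48 h, with bars for the limma estimate and error bars for its SE (n = 3 rats per group), filled where the adjusted p was under 0.05. Cxcl2 and Cxcl1 reach 5.82 and 5.24 at 4 h, Cxcl12 reaches -6.51 at 24 h, and Cxcl11 is above liver at 4 h and below it at 24 and 48 h.

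The other chemokines on the array were read from a list of 25, of which 13 were tested. From 0 to 4 h 5 rose and 0 fell, where 16.3% and 22.7% of all genes did, with a median of 0.06 against -0.15 over all genes. Ccl4 and Ccl3, attractants of macrophages and lymphocytes, stood at 3.82 ± 0.30 (adjusted p = 1.21e-06) and 3.50 ± 0.47 (adjusted p = 8.23e-05) on the log2 scale. The signal of Ccl4 was 115, 146 and 85.6 at 0 h, 1199, 2169 and 1562 at 4 h and 35.0, 62.3 and 43.7 at 24 h, and that of Ccl3 was 166, 121 and 239.7, 1669, 2856 and 1455 and 97.0, 47.5 and 83.9. In both genes every 4 h sample lay above every sample of 0 h and 24 h. Cxcl14 had 2.44 ± 0.61 (adjusted p = 0.00645) from 0 to 4 h. Its geometric mean was 143 at 4 h and 10.1 to 75.9 in the other groups, below the median of their arrays. Its passing of the filter may thus rest on the 4 h arrays. At 48 h vs. liver 0 rose and 8 fell (25.4% and 22.6% of all genes), among them Ccl5 (-5.01), a T cell attractant, Cxcl13 (-4.77), a B cell attractant, and Ccl6 (-4.21). At 0 h vs. liver Pf4, the chemokine of platelets, had -2.86 ± 0.54 (adjusted p = 0.0373). Its geometric mean was 590 in liver and 41.0 to 81.1 in the other groups, below the median of their arrays. The passing of the filter by Pf4 may thus rest on liver.

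Of 23 receptors listed, 9 were tested. From 0 to 4 h 2 rose and 1 fell (16.3% and 22.7% of all genes), and at 48 h vs. liver 0 rose and 5 fell (25.4% and 22.6%). Cxcr3, the receptor of Cxcl9, Cxcl10 and Cxcl11, had 101, 194 and 122 in liver and 82.3, 74.7 and 66.0 at 4 h. Ackr3, which removes Cxcl12 and Cxcl11, had 324, 121 and 234 at 0 h and 1831, 635 and 1328 at 4 h, a log2 fold change of 2.47 ± 0.59 (adjusted p = 0.00504), and of -4.84 ± 0.59 (adjusted p = 2.09e-05) at 48 h vs. liver. Its signals at 4 h were higher than at 0 h in 3 of 3 rats. Another scavenging receptor, Ackr2, was not called in either comparison. Ackr4, which removes Ccl19 and Ccl21, had -2.66 ± 0.39 (adjusted p = 0.000158) from 0 to 4 h and -4.03 ± 0.39 (adjusted p = 2.72e-06) at 48 h vs. liver. Ccrl2 rose from 0 to 4 h by 1.27 ± 0.29 (adjusted p = 0.00352). Its geometric mean was 115 at 4 h and 47.8 to 66.1 in the other groups, below the median of their arrays. The passing of the filter by Ccrl2 may thus rest on the 4 h arrays. The value of Cxcr4 at 48 h vs. liver was -1.31 ± 0.42 (adjusted p = 0.0196). Its geometric means of 75.5 in liver and 30.5 at 48 h lay below the array medians, where folds depend on the treatment of background.

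Genes listed for the NF-kappaB route rose in number at 4 h. This route lies upstream of several inflammatory chemokines, and its part in the courses described here was not tested. The list holds cytokines such as Il1a, Il1b and Tnf beside signalling genes. Of 35 tested, 20 rose and 3 fell from 0 to 4 h, where 16.3% and 22.7% of all genes did, with a median of 0.93 against -0.15 over all genes. Bcl3, a nuclear cofactor of NF-kappaB, had 3.15 ± 0.29 (adjusted p = 4.46e-06), and Il1r1, the interleukin-1 receptor, had 2.93 ± 0.28 (adjusted p = 6.07e-06). Bcl3 had a signal of 481, 343 and 446 at 0 h, 3087, 3651 and 4548 at 4 h and 1006, 633 and 1340 at 24 h. Its 4 h samples thus lay above every sample of both neighbouring times. Tlr4, the receptor of bacterial lipopolysaccharide, went the other way with -3.24 ± 0.61 (adjusted p = 0.00102). Its geometric mean was 104 in liver and 88.9 at 0 h, near or below the array medians, and 9.43 at 4 h and 9.15 at 48 h. The folds of Tlr4 thus depend on the treatment of background. At 48 h vs. liver 11 rose and 8 fell, shares near the 25.4% and 22.6% of all genes, and the falls of Il1a (-5.68), Tlr4 (-3.50) and Il1b (-3.20) were the largest. At 0 h vs. liver Zfp36, which shortens the life of cytokine transcripts, was the only 1 of the list called, with 1.34 ± 0.26 (adjusted p = 0.0445).

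Of 20 genes of the interferon-gamma route tested, 4 rose and 4 fell from 0 to 4 h, shares near the 16.3% and 22.7% of all genes, with a median of -0.27 against -0.15 over all genes. Ifit3, an interferon-induced gene, had 1.33 ± 0.27 (adjusted p = 0.00193) and the kinase Jak2 had 1.23 ± 0.27 (adjusted p = 0.00264), whereas Irf1, a transcription factor of this route, had -1.28 ± 0.31 (adjusted p = 0.00603). The signal of Irf1 was 604, 678 and 701 at 0 h and 236, 175 and 483 at 4 h, so it was lower at 4 h in 3 of 3 rats. The part of this route in the courses of Cxcl9, Cxcl10 and Cxcl11 was not tested. Ifng itself was dim, with 26.8, 38.7 and 13.0 in liver and 16.7, 22.3 and 6.27 at 4 h, and was not tested. At 48 h vs. liver 2 rose and 7 fell, where 25.4% and 22.6% of all genes did, and the largest changes were those of Irf8 (-3.03), Mx1 (-2.29) and Socs3 (-1.80).

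**Figure D5:**
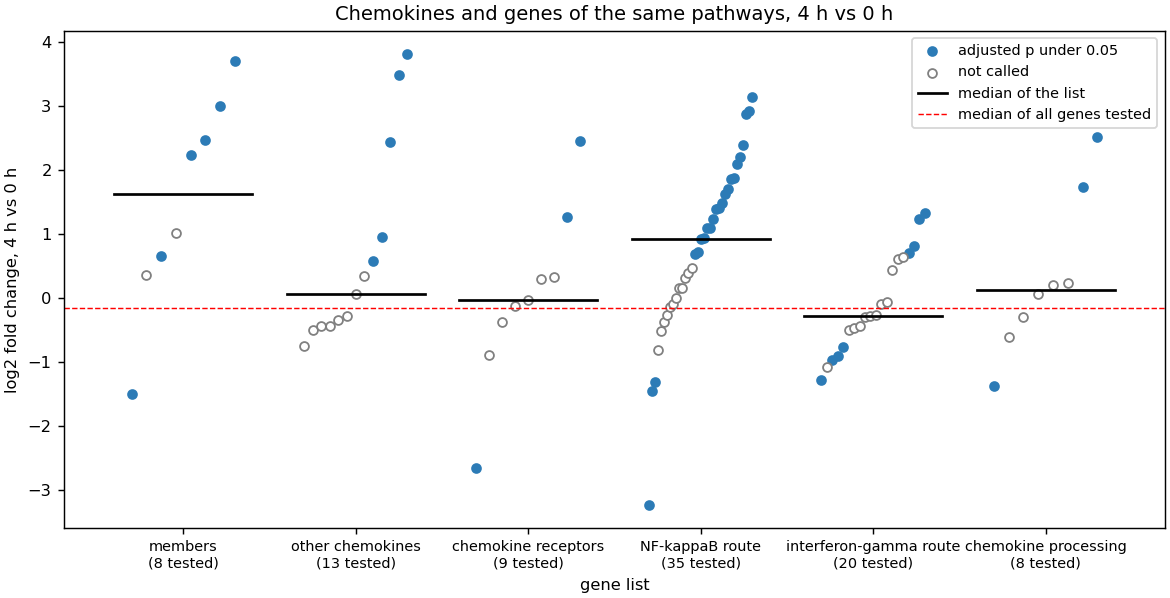
Log2 fold change from 0 to 4 h of the 8 tested chemokines and of 5 lists of related genes, with 1 point per gene, filled where the adjusted p from limma was under 0.05, a bar at the median of each list and a dashed line at the median of all genes tested. The median is 1.63 for the 8 chemokines, 0.93 for the NF-kappaB route and -0.27 for the interferon-gamma route, against -0.15 for all genes.

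Of 8 tested genes that cut, shed or degrade chemokines, 2 rose and 1 fell from 0 to 4 h, which is near the 16.3% and 22.7% of all genes. Rhbdf2, a partner of Adam17, had 2.52 ± 0.52 (adjusted p = 0.00206) and was still 2.13 at 48 h vs. liver. The protease Ctsk had 1.74 ± 0.47 (adjusted p = 0.0107) from 0 to 4 h and -2.55 at 48 h vs. liver. Ctsk was dim, with a geometric mean of 110 at 4 h and 8.84 to 51.9 in the other groups. Its passing of the filter may thus rest on the 4 h arrays. Mmp2, which truncates Cxcl12, had -1.38 ± 0.35 (adjusted p = 0.00680) from 0 to 4 h and -3.26 at 48 h vs. liver. Adam17 itself, whose substrate Cxcl16 rose, had 655, 716 and 577 in liver and 459, 574 and 544 at 48 h. Its 48 h samples thus lay just below its liver samples.

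The genes whose log2 signal was most like that of each chemokine over the 15 samples were listed by Pearson r among 10643 other genes, as a description without a test, since the samples share 5 groups. They were Il1rn for Cxcl1 (r = 0.928), Mapk6 for Cxcl2 (r = 0.971), Atp11b for Ccl2 (r = 0.921) and Nup93 for Cxcl9 (r = 0.960). For Cxcl10 it was Gja4 (r = 0.949), for Cxcl11 Slc16a10 (r = 0.986), for Cxcl12 Slco1b2 (r = 0.993) and for Cxcl16 Cdc42ep2 (r = 0.989). Between the chemokines themselves r was highest for Cxcl1 with Cxcl2 (0.905) and lowest for Cxcl12 with Cxcl16 (-0.955). The neighbours Cxcl10 and Cxcl11 had 0.831, and Cxcl9 had 0.264 with Cxcl11 and -0.214 with Cxcl10.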

How the data were processed

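The authors computed MAS5 signal intensities from RG230-2 arrays and scaled them to 500, and the deposited values are linear intensities with 1 column per technical array. The sources name both the Command Console software and the affy package, without saying which gave these values. The authors ran 3 technical arrays per rat and group and excluded 1 array at 4 h and 1 at 48 h. The log2 of each signal, with no offset, was averaged over technical arrays, giving 15 samples. Of 31099 probe sets, 20832 list 1 gene and 436 that list several were left out. Probe sets above the array median in at least 10% of arrays were kept (14556), and the brightest stood for its gene. The test was limma (version 3.58.1, R 4.3.3; lmFit, then eBayes) on all 15 samples, the rat being left out of the model, and Benjamini-Hochberg adjustment within each of 7 comparisons. The script was tested on simulated data. Samples were paired by rat, as the labels give the same animal in each group. The median r of residuals was 0.34 within a rat (30 pairs, the lowest -0.15) and -0.18 between rats (60 pairs). Residuals were taken from group means, so the value between rats follows largely from that within a rat. The number of rats, 3 per group, limits the precision. The chemokines, the lists and the rule for named genes (the 3 largest changes among the called genes of each list at 0 h vs. liver, 4 h vs. 0 h and 48 h vs. liver, and fixed marker genes) were chosen with earlier results of these data known. Per-sample signals of other list genes were picked after their values were seen. Alternatives changed the normalization, offset, filter, probe set choice, technical arrays, block, groups in the fit and samples. The beta-actin covariate was added after seeing the data. Promoters and coordinates are those of RefSeq on GRCr8 (9 of 10 genes had a promoter, Ccl2 being the other).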

Additional observations from a re-analysis of the deposited data

How the results depend on the processing

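Over 56 results of the 8 tested chemokines, of which 35 were called, none of the called values changed sign under the 13 settings or when samples were left out. Under the 13 settings (12 for Ccl2, which a stricter filter leaves out) 18 of 721 values lost and 14 gained a call, and under the 504 that leave out samples 36 lost and 7 gained one. Of the chemokines called, the number at 0 h vs. liver went from 2 to 0 without the filter, to 1 with the compared groups alone, and to 3 with the median of technical arrays or with the block and exchanged livers, Cxcl16 being gained. At 48 h vs. 24 h the number went from 1 to 2 with an offset of 32, to 2 with the rat as a replicate block (also with the livers of rats 1 and 2 exchanged), and to 0 without the filter or with the compared groups alone. With the beta-actin ratio as a covariate, 5 in place of 8 were called at 48 h vs. liver, the calls of Cxcl2, Ccl2 and Cxcl9 being lost. Leaving out samples gave 0 to 2 calls both at 0 h vs. liver and at 48 h vs. 24 h. The block changed calls of Ccl2 only, apart from Cxcl16 at 0 h vs. liver (adjusted p = 0.0364) and Cxcl1 at 24 h vs. 4 h (adjusted p = 0.0490) when the 2 livers were exchanged. Signs changed only for values that were not called: Cxcl16 at 4 h vs. liver (0.036 with quantile normalization, 0.28 with centring) and Cxcl12 at 0 h vs. liver (0.33 with centring). Leaving out 1 sample gave ranges across 0 at 0 h vs. liver for Ccl2 (-0.23 to 0.72), Cxcl9 (-0.42 to 0.41), Cxcl10 (-0.15 to 0.22) and Cxcl12 (-0.14 to 0.036), at 4 h vs. liver for Cxcl16 (-0.35 to 0.050), at 24 h vs. 4 h for Ccl2 (-0.68 to 0.0020) and at 48 h vs. 24 h for Cxcl11 (-0.23 to 0.016). Leaving out a whole rat reversed Cxcl10 (-0.090 and -0.085) and Cxcl9 (-0.14) at 0 h vs. liver, Cxcl16 (0.14) and Cxcl10 (-0.059) at 4 h vs. liver and Cxcl11 at 48 h vs. 24 h (0.017). Centring moved the median of all genes at 48 h vs. liver from 0.04 to 0.43, and the calls at 4 h vs. liver from 4 up and 1 down to 5 up and 1 down. The cause was not tested for any of these. Low signals limit Ccl20, Cx3cl1, Ccl2 and the liver values of Cxcl2.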
